A study of Mus musculus with 4 samples.

Results

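The collagen genes were read on 4 arrays of mouse embryonic fibroblasts (MEFs), primary connective tissue cells prepared from whole embryos. Control spots aside, every probe whose gene name is Col followed by a type number and a chain number was taken as a member. This gave 59 probes for 40 genes, out of 39429 probes with 31829 gene names. By type number, 11 of the genes are fibrillar (types I, II, III, V, XI, XXIV and XXVII), 8 are basement membrane collagens (types IV, XV and XVIII) and 21 are others. All 59 probes had a value on every array. At least 1 probe of 35 genes was well above background on some array, and the remaining 5 genes, Col6a6, Col13a1, Col22a1, Col24a1 and Col28a1, were dim throughout.

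Each array carried RNA from MEFs of C57BL/6J mice in logarithmic growth, with no treatment. The groups were CycG2-/- MEFs (labelled G2KO), CycG2+/+ MEFs (labelled G2WT), CycG1-/-CycG2-/- MEFs (the double knockout, DKO) and CycG1+/+CycG2+/+ MEFs (labelled G1G2WT). In the knockout mice the genes of cyclin G1 (Ccng1) and cyclin G2 (Ccng2), cyclins that respond to DNA damage, are disrupted in the germline, and in Ccng1 a PGK-neo cassette replaces the coding exons. With 1 array per group, no ratio has a replicate check and no test between genotypes was made, so precision is limited by how few arrays there are. The labels do not say how many embryos a culture holds. In RNA from whole cultures, fewer cells of a type and less RNA per cell cannot be told apart.

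Collagens are the main structural proteins of the extracellular matrix, and each molecule is a trimer of α chains wound into a triple helix. In the helix glycine recurs at a fixed spacing, written as the repeat Gly-X-Y. Fibrillar collagens build the ropes that give skin, tendon, bone and cartilage their strength, type IV collagen builds the sheet under epithelia and around vessels, and smaller families decorate fibrils, anchor sheets or span the cell membrane. Fibroblasts are the main source of types I, III, V and VI, whereas types II, IX, X and XI are known from cartilage.

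2 probes lay within such repeats over their whole length of 60 bases, with the first bases of a glycine codon every 9 bases, and are shown because they read the helix itself. Capitals mark the glycine codons, 6 in each probe. Positions of probes are those of the files, on mm9.

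Col15a1 probe (chr4:47283786-47283845, + strand): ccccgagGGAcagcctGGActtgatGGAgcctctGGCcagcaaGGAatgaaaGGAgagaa
Col25a1 probe (chr3:130270497-130270556, + strand): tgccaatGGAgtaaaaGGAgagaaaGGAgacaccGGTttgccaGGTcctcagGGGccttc

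Promoter windows from RefSeq on GRCm38.p6 matched 32 of the 40 genes by symbol. There was no entry for Col1a1, Col2a1, Col4a3, Col5a2, Col9a3, Col12a1, Col14a1 and Col22a1. The 150 bases before the start are printed for the short-chain collagens Col8a1, Col8a2 and Col10a1, the family in which every gene was at least 4-fold lower on the DKO array than on its WT, and for Col1a2 and Col3a1, of which the former was within 2-fold on all arrays. Capitals mark the motif TATAAA, the motif CCAAT and the motif GGGCGG on either strand, and copies of GGGCGG can overlap each other.

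Col8a1 promoter (chr16:57754738-57754887, - strand): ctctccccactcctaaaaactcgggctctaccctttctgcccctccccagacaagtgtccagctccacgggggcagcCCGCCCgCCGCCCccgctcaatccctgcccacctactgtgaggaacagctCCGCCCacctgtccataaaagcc
Col8a2 promoter (chr4:126286644-126286793, + strand): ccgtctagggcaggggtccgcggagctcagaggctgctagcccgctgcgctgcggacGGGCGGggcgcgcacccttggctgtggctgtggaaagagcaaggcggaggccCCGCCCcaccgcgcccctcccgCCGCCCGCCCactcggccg
Col10a1 promoter (chr10:34389831-34389980, + strand): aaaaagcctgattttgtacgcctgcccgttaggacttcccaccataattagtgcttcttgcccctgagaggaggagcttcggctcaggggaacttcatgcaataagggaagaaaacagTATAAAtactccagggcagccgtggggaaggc
Col1a2 promoter (chr6:4505468-4505617, + strand): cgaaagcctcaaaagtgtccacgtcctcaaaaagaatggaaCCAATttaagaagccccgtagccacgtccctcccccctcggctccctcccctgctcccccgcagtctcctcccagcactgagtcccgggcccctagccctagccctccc
Col3a1 promoter (chr1:45311388-45311537, + strand): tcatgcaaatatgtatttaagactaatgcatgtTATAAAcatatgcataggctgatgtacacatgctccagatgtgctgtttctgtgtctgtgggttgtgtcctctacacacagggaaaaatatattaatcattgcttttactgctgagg

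Over the 250 bases before the start, TATAAA was in 13.2% of 38 collagen windows (35 genes, those off the array included) and in 12.4% of all 32851 windows. CCAAT was in 34.2% of the collagen windows and 33.8% of all, and GGGCGG in 57.9% and 32.7%. Col10a1 held TATAAA with its first base 32 bases before the start and no GGGCGG, whereas Col8a1 and Col8a2 held GGGCGG 4 times each, all printed for Col8a2 and 3 of them printed for Col8a1, and neither of the other motifs. A match describes the letters of the window and is not a binding site.

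A level below is the processed signal of a probe divided by the 75th percentile of its array, so levels compare arrays and not genes. A probe is called dim on an array where its signal was not well above background. A ratio with a dim array is a limit, marked by at least. Between 65.0% and 72.2% of probes were above background per array. The error that the scanner software gave for the collagen signals above background lay between 10.0% and 21.3%, with a median of 10.0% over 163 values. Col4a1, the only collagen probe with 10 spots, had a log2 SD between spots from 0.0446 to 0.0881. Ccng1 was at 1.98 on the array labelled G2KO, 9.45 on G2WT and 1.66 on G1G2WT, and was dim on the DKO array, at least 228-fold lower than on G1G2WT. Ccng2 was above background on all 4 arrays, at 0.0910, 0.104, 0.0619 and 0.0806 for G2KO, G2WT, DKO and G1G2WT, so its probe did not separate the genotypes.

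Both comparisons rest on arrays that stand apart. Xist was above background only on the G2WT array, and the neural genes Nes and Sox2 were higher there than on any other array. Every direction between the arrays labelled G2KO and G2WT rests on the labels. Of the few genes the study lists for G2KO, Col11a1 is the only member, and its direction is the opposite of the one here. The same holds for Xist, Sox2, Lox, Pdgfra and the α3 chain of type VI. Which of these arrays is the knockout is therefore not settled, and the array labelled G2KO was also set against G1G2WT. Below, the arrays labelled G2WT and G1G2WT are called the WT arrays, by their labels only. With the labels G2KO and G2WT turned, the sign of every ratio between these arrays turns, and each difference between G1G2WT and G2WT becomes one between a WT and a CycG2-/- array. The DKO array stood apart in another way. All 11 mesothelial markers were at least 4-fold higher than on G1G2WT, beside 4.04% of all genes. Their summed level was 149.0 against 0.683, and 1.32 and 1.60 on the arrays labelled G2KO and G2WT. Krt18, Upk1b, Wt1 and Msln were among them, and 8 of the 11 ratios were lower limits. Of 13 fibroblast markers, 6 were at least 4-fold lower and 1 higher, beside 4.03% and 4.04% of all genes. Their summed level was 136 against 285 on G1G2WT, 264 on the array labelled G2KO and 193 on G2WT. Of the same 13 markers, 9 were at least 4-fold lower on G2WT than on G1G2WT, beside 4.63% of all genes. Thy1 was lower by 133-fold and Pdgfra by at least 729-fold, and Vim and S100a4 make up most of the G2WT sum. Postn, Pdgfra and Thy1 were the lowest by ratio, Pdgfra at 0.0296 on the DKO array against 5.22, whereas Vim was at 60.5 against 62.5. The part of these cell type markers in the collagen values was not tested. Markers of other cell types were counted where they had a ratio. At least 4-fold lower on the DKO array were 3 of 7 chondrocyte (Sox9, Ucma and Lect1) and 1 of 4 osteoblast genes (Dmp1). So were 2 of 5 smooth muscle (Acta2 and Tagln) and 1 of 5 neural genes (Tubb3). None of 4 endothelial, 5 macrophage and 4 epithelial genes passed that size. Over all genes, 4.03% were lower and 4.04% higher by 4-fold, so none or 1 gene of a list this short does not set the list apart.

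In DKO MEFs, 7 of the 33 collagen genes with a ratio were at least 4-fold lower than on G1G2WT and 1 was at least 4-fold higher. The background over all 22881 genes was 4.03% lower and 4.04% higher. The 7 were Col2a1, Col4a4, Col8a1, Col8a2, Col10a1, Col12a1 and Col18a1, and the 1 was Col15a1. Col4a4 and Col15a1 fell below 4-fold with normexp background correction (log2 ratios of -1.87 and 1.94) and as the median over a gene's probes (-1.18 and 1.21), where Col4a6 passed it (2.10). The median log2 ratio was -0.41 over 10 fibrillar genes, -0.48 over 7 basement membrane genes and -0.84 over 16 others, beside 0.03 over all genes. Set against the G2WT array instead, the picture was different, with 3 of 34 collagen genes at least 4-fold lower and 10 higher (background 3.82% and 5.80%) and a median of 0.86. Of 33 genes with a ratio to both WT arrays, 8 were lower on the DKO array than on either, 9 were higher than on either, and 15 were lower than on G1G2WT but higher than on G2WT. The share lower than on either was 24.2%, below the 33.3% of all genes. For genes higher than on either, or between the WT arrays, the share over all genes was not counted. By the probe that stands for each gene, Col2a1 and Col18a1 were at least 4-fold lower than on both WT arrays (background 1.48%), and Col15a1 was higher than on both by that size (background 3.01%). A second probe of Col4a6 was also higher than on both by over 4-fold.

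**Figure D1:**
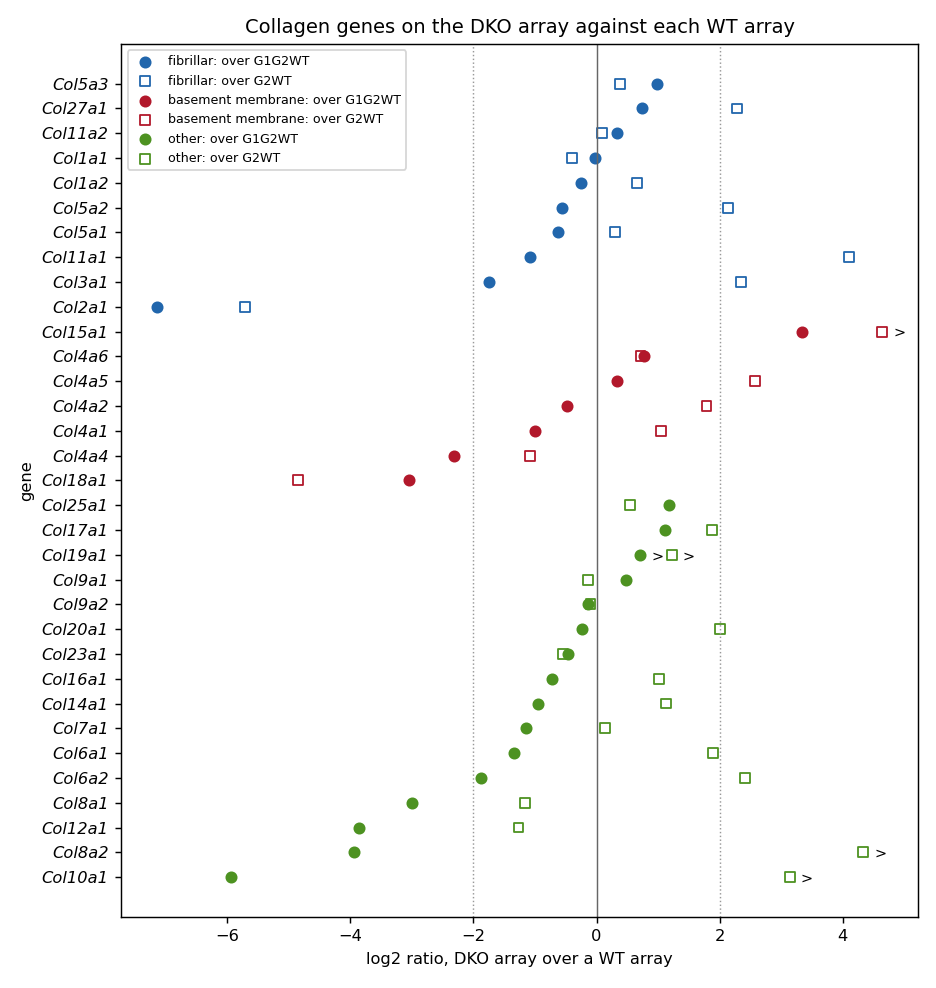
Log2 ratio of each collagen gene on the DKO array over G1G2WT, its WT (filled circles), and over G2WT (open squares), coloured by class, with dotted lines at 4-fold and > beside a lower limit. Col2a1 lies left of both lines against either WT array, whereas the squares of Col8a2 and Col10a1 lie right of 0 and their circles left of it.

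The arrays labelled G2WT and G1G2WT also differed from each other in many collagen genes, beside the lower fibroblast markers on G2WT, whose part was not tested. Of 33 genes, 13 were at least 4-fold higher on G1G2WT than on G2WT and none was lower by that size, beside 4.63% and 2.76% of all genes. Over the 29 collagen genes above background on all 4 arrays, the median size of the log2 difference was 1.54 between the WT arrays and 0.956 between DKO and G1G2WT. For all 24197 such probes it was 0.437 and 0.396. The array labelled G2KO lay nearest to G1G2WT, with a median size of 0.507 for collagen genes, little less than its 0.539 to DKO. The SD of its log2 differences was 0.813 to G1G2WT and 1.27 to DKO. G2WT was the lowest array for 16 of the 29 genes and G1G2WT the highest for 17. Between the lowest and the highest array, 9 of the 29 genes spanned less than 1 on the log2 scale and 17 spanned at least 2. The span ran from 0.51 for Col9a2 to 7.13 for Col2a1. Array order and span were not counted over all genes, so these counts do not set collagen genes apart.

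Type I collagen, the most common collagen of connective tissue, is built from the chains of Col1a1 and Col1a2. The level of Col1a1 was 37.2 on the array labelled G2KO, 54.3 on G2WT, 41.0 on DKO and 41.9 on G1G2WT. Col1a2 was at 136 on the array labelled G2KO, 89.9 on G2WT, 142 on DKO and 169 on G1G2WT. Both chains thus stayed within 2-fold over all 4 arrays, and the log2 ratio of DKO to its WT was -0.03 for Col1a1 and -0.25 for Col1a2. Between the arrays labelled G2KO and G2WT the chains pointed opposite ways, with -0.55 for Col1a1 and 0.60 for Col1a2.

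Col3a1, the chain of type III collagen, which is mixed into type I fibrils of skin and vessels, did not follow type I. Its level was 24.4 on the array labelled G2KO, 1.77 on G2WT, 8.99 on DKO and 30.02 on G1G2WT. The DKO array was 3.34-fold lower than G1G2WT, and 5.07-fold higher than G2WT, which was the lowest. The array labelled G2KO was 13.7-fold higher than G2WT but 1.23-fold lower than G1G2WT.

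Col2a1, the chain of type II collagen, the fibril of cartilage, showed the largest difference of any collagen gene on the DKO array. Its level was 0.874 on the array labelled G2KO, 2.44 on G2WT, 0.0466 on DKO and 6.54 on G1G2WT. DKO was 140-fold lower than G1G2WT and 52.4-fold lower than G2WT, both more than the 2.68-fold between the WT arrays. The array labelled G2KO was also below both WT arrays, 2.79-fold and 7.48-fold. Among 9 chondrocyte markers on the array, Matn1 and Hapln1 were dim on all 4 arrays. Acan was nearly level, between 0.0395 and 0.0493, and Sox9, which is known to drive Col2a1, was at 0.831, 0.0439, 0.224 and 1.39 in the order G2KO, G2WT, DKO and G1G2WT. The summed level of the chondrocyte list was 0.939, 0.203, 0.412 and 1.67 in that order, and Sox9 made up most of it on all arrays but G2WT. Ucma and Lect1 were above background on G1G2WT alone, at 0.0372 and 0.0609. Of 7 chondrocyte markers with a ratio of DKO to its WT, 3 were higher and 4 lower. The part of these markers in the Col2a1 values was not tested.

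The chains of types V and XI set the diameter of fibrils and can share molecules. Col5a1 was at 15.9, 11.4, 13.996 and 21.5 on the arrays labelled G2KO, G2WT, DKO and G1G2WT, a span within 2-fold. Col5a2 was at 2.94, 0.745, 3.29 and 4.86, lowest on G2WT and 6.52-fold higher on G1G2WT. Col5a3 was the chain that ran the other way, at 1.99, 2.24, 2.90 and 1.46, highest on DKO with a 1.99-fold ratio to its WT. Col11a1 was at 8.19 on the array labelled G2KO, 0.239 on G2WT, 4.11 on DKO and 8.68 on G1G2WT. Only the G2WT array stood out for it, 34.2-fold below the array labelled G2KO, 17.2-fold below DKO and 36.3-fold below G1G2WT. Col11a2 stayed between 0.0350 and 0.0559 on all 4 arrays.

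Col27a1, a fibrillar chain known from cartilage, was at 0.257, 0.0892, 0.434 and 0.260 on the arrays labelled G2KO, G2WT, DKO and G1G2WT. It was 1.67-fold higher on DKO than on G1G2WT and 4.87-fold higher than on G2WT. Col24a1, the remaining fibrillar gene, was dim on all 4 arrays. Of the 10 fibrillar genes with a ratio, 3 were higher and 7 lower in DKO than in its WT, and Col2a1 alone passed 4-fold.

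**Figure D2:**
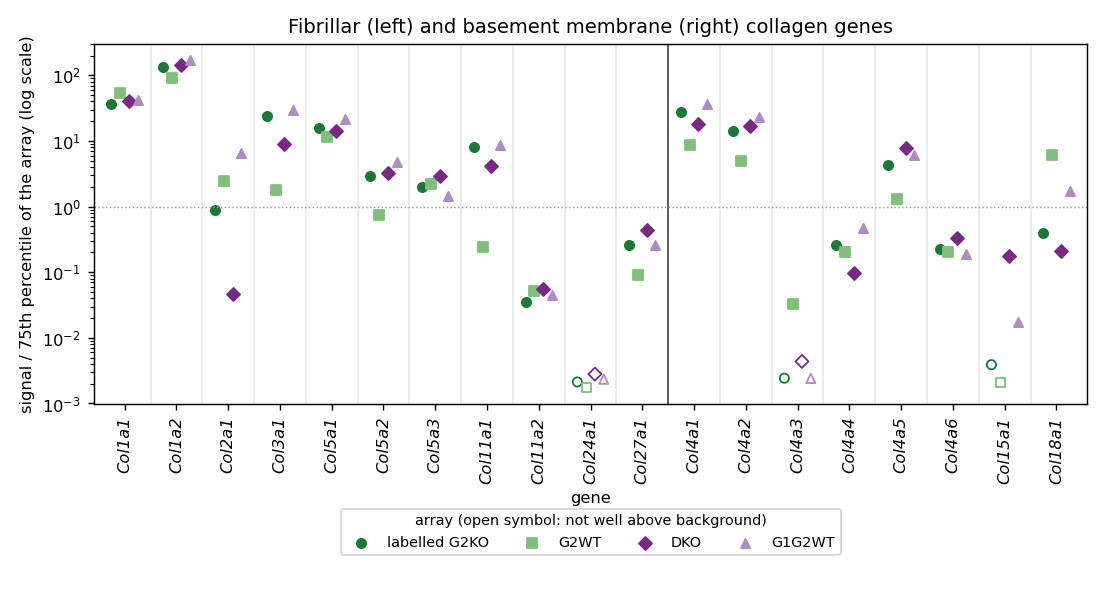
Level of each fibrillar (left) and basement membrane (right) collagen gene on the 4 arrays, as signal over the 75th percentile on a log scale, with open symbols where the probe was dim. Col1a1 and Col1a2 lie within 2-fold on all arrays, Col2a1 is lowest on DKO at 0.0466, and Col11a1 is lowest on G2WT at 0.239.

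Type IV collagen is the network of basement membranes. Its common form holds the chains of Col4a1 and Col4a2, which were similar across arrays. Col4a1 was at 27.7 on the array labelled G2KO, 8.71 on G2WT, 18.1 on DKO and 36.0 on G1G2WT, and Col4a2 was at 14.3, 4.87, 16.8 and 23.4 in that order. Both were lower on DKO than on its WT, 1.995-fold for Col4a1 and 1.40-fold for Col4a2, and both were higher than on G2WT, 2.07-fold and 3.45-fold. Their log2 ratios differed by 0.52 for DKO over its WT, 0.12 for the array labelled G2KO over G2WT, and 0.22 between the WT arrays. In RefSeq on GRCm38.p6 the pair starts head to head, at position 11312826 on the minus strand and 11312805 on the plus strand of chromosome 8, only 21 bases apart.

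The chains of Col4a3 and Col4a4 form, with that of Col4a5, the type IV collagen of the kidney glomerulus. Col4a3 was above background on the G2WT array alone, at 0.0323. Col4a4 was at 0.258, 0.203, 0.0964 and 0.480 on the arrays labelled G2KO, G2WT, DKO and G1G2WT, and was 4.97-fold lower on DKO than on its WT. Its probes disagreed, however. A second probe stayed between 0.0478 and 0.0607 on all arrays, with a log2 ratio of -0.04 for DKO over its WT, and the third was dim on every array.

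Col4a5 and Col4a6 also lie head to head, on the X chromosome, with starts 1343 bases apart. Col4a5 was at 4.24, 1.32, 7.86 and 6.22 on the arrays labelled G2KO, G2WT, DKO and G1G2WT, lowest on G2WT. It was 1.26-fold higher on DKO than on its WT. Col4a6 was nearly level by the probe that stands for it, at 0.226, 0.200, 0.328 and 0.192. Its other probe was at 0.321, 4.27 and 0.395 on the arrays labelled G2KO, DKO and G1G2WT and dim on G2WT, with a log2 ratio of 3.43 for DKO over its WT against 0.77 by the first. The probes lie between 137599990 and 137601491, and for DKO over its WT their direction was the same while the size was not. Between the WT arrays, and for the array labelled G2KO over G1G2WT, their signs were opposite.

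Types XV and XVIII are the multiplexins, basement membrane collagens with an interrupted helix, and the C-terminal fragment of type XVIII is endostatin. Col18a1 was at 0.3997 on the array labelled G2KO, 6.03 on G2WT, 0.209 on DKO and 1.72 on G1G2WT. It was lower on DKO and on the array labelled G2KO than on G2WT and G1G2WT. With the labels G2KO and G2WT turned, the knockouts would be at 0.209 and 6.03 and would lie on either side of the WT arrays. DKO was 8.24-fold lower than G1G2WT and 28.9-fold lower than G2WT, and the array labelled G2KO was 4.30-fold and 15.1-fold lower. A second probe gave 0.307, 6.55, 0.317 and 1.08, with log2 ratios of -1.77 for DKO over its WT and -4.41 for the array labelled G2KO over G2WT, against -3.04 and -3.91 by the first. The WT arrays themselves differed 3.51-fold, and Col18a1 was the only collagen gene above background on all 4 arrays for which G2WT was highest by over 2-fold.

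Col15a1 was dim on the arrays labelled G2KO and G2WT, at 0.179 on DKO and at 0.0176 on G1G2WT, a 10.1-fold higher level on DKO. It was at least 24.9-fold higher than on G2WT. This rests on 1 probe. The helix probe printed above was near background, between 0.00810 and 0.0154, with a log2 ratio of -0.93 for DKO over its WT, and a probe that starts within 12 bases of the first, at 47325261, was dim on all 4 arrays. Of the 7 basement membrane genes with a ratio, 3 were higher and 4 lower in DKO than in its WT.

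Type VI collagen forms beaded filaments around fibroblasts and muscle fibres from an α1, an α2 and an α3 chain. Col6a1 was at 37.9 on the array labelled G2KO, 9.66 on G2WT, 35.9 on DKO and 90.6 on G1G2WT. Col6a2 was at 5.19, 0.928, 4.96 and 18.1 in that order. For both chains G1G2WT was highest and G2WT lowest, and DKO and the array labelled G2KO lay between them at nearly the same level. DKO was 2.53-fold lower than its WT for Col6a1 and 3.66-fold lower for Col6a2. The WT arrays differed 9.38-fold for Col6a1 and 19.6-fold for Col6a2.

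The α3 chain of type VI is not a member by name, because the files give its probe a transcript identifier and the description collagen alpha3(VI), and it was looked up by that description after its values were known. Its probe, at 92663663 to 92663722 on chromosome 1 of mm9, was at 42.5 on the array labelled G2KO, 0.313 on G2WT, 0.0660 on DKO and 62.1 on G1G2WT. DKO was 941-fold lower than its WT, a larger ratio than for any member, and 4.75-fold lower than G2WT. The array labelled G2KO was 136-fold higher than G2WT and 1.46-fold lower than G1G2WT. On the DKO array the α3 probe thus differed from its WT far more than the probes of α1 and α2 did. A probe described as the α2 chain and also named by a transcript was at 0.180, 0.0728, 0.307 and 0.742 on the arrays labelled G2KO, G2WT, DKO and G1G2WT, with a log2 ratio of -1.27 for DKO over its WT, beside -1.87 for Col6a2. The 5 further probes of this kind, for chains of types XII, XVI, XIX, XXII and XXVI, stayed at or below 0.0801 on every array.

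Types VIII and X are short-chain collagens that form hexagonal networks, type VIII in vessels and the cornea and type X in the hypertrophic cartilage of growth plates. All 3 genes were lower on DKO than on its WT. Col8a1 was at 3.19 on the array labelled G2KO, 1.20 on G2WT, 0.536 on DKO and 4.28 on G1G2WT, and DKO was 7.97-fold lower than its WT and 2.23-fold lower than G2WT. Col8a2 was at 0.380 on the array labelled G2KO, 0.144 on DKO and 2.22 on G1G2WT and dim on G2WT by the probe that stands for it. By this probe DKO was 15.4-fold lower than its WT but at least 20.2-fold higher than G2WT. A second probe of Col8a2 was above background on all 4 arrays, at 0.0586, 0.0130, 0.020005 and 0.398 for G2KO, G2WT, DKO and G1G2WT. It gave -4.31 for the log2 ratio of DKO to its WT, beside -3.94 by the first, but put DKO much less far above G2WT.

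Col10a1 was at 0.513 on the array labelled G2KO, 0.0632 on DKO and 3.86 on G1G2WT and was dim on G2WT. DKO was 61.2-fold lower than its WT and at least 8.82-fold higher than G2WT, and the array labelled G2KO was 7.53-fold lower than G1G2WT. Its second probe was dim on all 4 arrays. For Col10a1 the WT arrays differed at least 539-fold. For Col8a2 they differed at least 309-fold by the first probe and 30.55-fold by the second. By either probe this was more than DKO differed from its WT. Among the other genes of hypertrophic cartilage and bone, Ibsp was dim on all 4 arrays, Runx2 stayed between 0.0554 and 0.181, and Dmp1 was at 0.550 on the array labelled G2KO, 0.0250 on G2WT and 0.60045 on G1G2WT and was dim on DKO. The summed level of the 6 osteoblast markers on the array was 0.796, 0.228, 0.117 and 0.782 for G2KO, G2WT, DKO and G1G2WT, and its part in the Col10a1 values was not tested.

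Fibril-associated collagens with interrupted helices (FACITs) sit on the surface of fibrils. Col12a1, found on type I fibrils of tendon and muscle, was at 7.198 on the array labelled G2KO, 3.04 on G2WT, 1.26 on DKO and 18.4 on G1G2WT. DKO was the lowest array, 14.6-fold below its WT and 2.41-fold below G2WT. Col14a1 was at 0.185, 0.0894, 0.196 and 0.380 on the arrays labelled G2KO, G2WT, DKO and G1G2WT, and Col16a1 at 17.7, 7.65, 15.4 and 25.4. Col20a1 was at 0.175, 0.0624, 0.250 and 0.295. These genes had G2WT as the lowest and G1G2WT as the highest array, and DKO was below its WT by 1.94-fold for Col14a1, 1.65-fold for Col16a1 and 1.18-fold for Col20a1. The 3 probes of Col16a1 gave log2 ratios of -0.72, -0.47 and -0.37 for DKO over its WT.

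Of the type IX genes, which encode a cartilage collagen bound to type II fibrils, Col9a1 stayed between 0.0205 and 0.0359 and Col9a2 between 0.0671 and 0.0954 on the 4 arrays. Col9a3 was above background only on the array labelled G2KO, at 0.00808. The log2 ratios of DKO to its WT were 0.48 for Col9a1 and -0.15 for Col9a2. Both probes lay too near background on G1G2WT for a fall as large as that of Col2a1 to be seen. A second probe of Col9a1 was dim on all 4 arrays. Col19a1 was above background only on DKO, at 0.0168, at least 1.64-fold higher than on G1G2WT.

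Col7a1, the chain of the anchoring fibrils that tie the epidermis to the dermis, was at 6.38 on the array labelled G2KO, 1.08 on G2WT, 1.19 on DKO and 2.63 on G1G2WT. It was the only gene of the 29 above background throughout for which the array labelled G2KO was highest, 5.90-fold above G2WT and 2.43-fold above G1G2WT. DKO was 2.21-fold lower than its WT. The transmembrane collagens Col17a1, Col23a1 and Col25a1, known from epithelia and neurons, were low on all arrays, at 0.0491 or less. Of the 3, Col17a1 and Col25a1 were higher on DKO than on its WT, 2.16-fold and 2.26-fold.

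**Figure D3:**
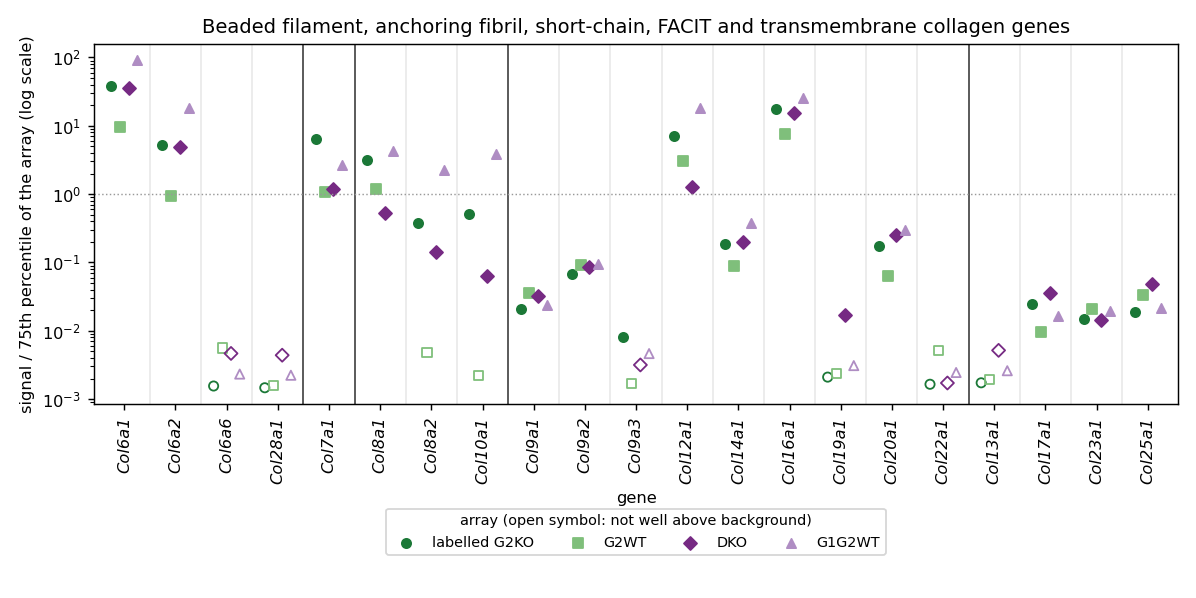
Level of each of the 21 other collagen genes on the 4 arrays, as signal over the 75th percentile on a log scale, with dark lines between families and open symbols where the probe was dim. All 3 short-chain genes (Col8a1, Col8a2, Col10a1) are lower on DKO than on G1G2WT, and the plotted probes of Col8a2 and Col10a1 are dim on G2WT.

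Between the arrays labelled G2KO and G2WT, 6 of 33 collagen genes were higher by 4-fold or more on the former and 2 were lower, beside 3.71% and 2.02% of all 22790 genes. The higher genes were Col3a1, Col6a2, Col7a1, Col8a2, Col10a1 and Col11a1, and the lower were Col4a3 and Col18a1. Col8a2 was at least 53.0-fold higher by one probe and 4.497-fold by the other, Col10a1 was at least 71.6-fold higher and Col4a3 at least 4.89-fold lower. Median log2 ratios were 0.54 for fibrillar, 0.34 for basement membrane and 1.30 for other collagens, beside -0.17 for all genes. Against G1G2WT, by contrast, no collagen gene of 32 was higher by 4-fold or more on the array labelled G2KO, and Col2a1, Col8a2, Col10a1 and Col18a1 were lower by that size (background 0.911% higher and 1.39% lower). Of these, Col18a1 was also lower than on G2WT by that size.

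Chains that share a molecule were not always alike across arrays. The α1 and α2 chains of type I differed by 0.22 in the log2 ratio of DKO to its WT, those of type IV by 0.52, those of type VI by 0.54 and those of type VIII by 0.95. Col5a1 and Col5a2 differed by 0.06 in DKO, whereas Col5a1 and Col5a3 differed by 1.61. Among pairs of members, the widest gap was between Col11a1 and Col2a1, with log2 ratios of -1.08 and -7.13. Their products can join in type XI collagen. The α3 probe of type VI, outside the rule, lay further from its partners, at -9.88 beside -1.34 for Col6a1 and -1.87 for Col6a2. Genes that lie close together were compared as well. Col3a1 and Col5a2, whose probes are 25.6 kb apart on chromosome 1, both had G2WT as the lowest and G1G2WT as the highest array. Genes on other chromosomes, among them Col1a2, Col5a1, Col11a1 and Col16a1, had the same lowest and highest array, so this does not set the neighbours apart. Col18a1, 343 kb from Col6a1 on chromosome 10, had G2WT as the highest array, whereas Col6a1 and Col6a2 had it as the lowest.

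Where a gene had several probes measured on both arrays, 7 of 11 pairs of probes gave log2 ratios of DKO to its WT within 1 of each other, with a median difference of 0.37, and 10 of 11 had the same sign. The pair of Col15a1 was the one with opposite signs. Every pairing of the Col16a1 probes is counted here and in the other comparisons, and these pairs depend on each other and were close. Among genes past 4-fold in DKO, the pairs of Col4a4, Col15a1 and Col18a1 differed by 2.27, 4.27 and 1.27, and that of Col8a2 by 0.37. For the array labelled G2KO over G2WT and for the WT arrays, all 6 pairs measured on both arrays were within 1 and of the same sign. Among pairs with a limit, those of Col4a6 differed by at least 5.31 and 5.84 and those of Col8a2 by at least 3.56 and 3.34. Between the WT arrays, Col14a1, Col15a1 and Col23a1 differed by at least 0.866, 1.008 and 0.984. Taken at its limit, the pair of Col25a1 lay 0.07 and 0.18 apart. The probes of Col4a6 and of Col23a1 had opposite signs between the WT arrays.

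The genes that make, process, bind and degrade collagen were read from lists by role. Of 19 genes for chain modification and folding with a ratio, among them the prolyl and lysyl hydroxylases and the chaperone Serpinh1 (HSP47), none differed 4-fold in DKO MEFs, 5 were higher and 14 lower, and the median log2 ratio was -0.17. Over all genes, 4.04% were higher and 4.03% lower by 4-fold, so 0 of 19 does not set the list apart. Serpinh1 was at 32.6, 29.7, 26.1 and 33.1 on the arrays labelled G2KO, G2WT, DKO and G1G2WT. None of the 19 differed 4-fold between the arrays labelled G2KO and G2WT either, beside 3.71% higher and 2.02% lower of all genes. On the former array 16 of the 19 were higher by any size, beside 8984 of all 22790 genes.

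Of 12 genes for procollagen cleavage and cross-linking, 1 was at least 4-fold higher and 1 lower in DKO MEFs, beside 4.04% and 4.03% of all genes. Adamts2, the protease that removes the N-propeptide of types I and III, was at 0.193 on the array labelled G2KO, 0.0443 on G2WT, 11.4 on DKO and 0.815 on G1G2WT, 14.025-fold higher on DKO than on its WT. Tll1, a C-propeptide protease, was at 1.14, 1.03, 0.283 and 1.52, and was 5.39-fold lower. Of 7 fibril regulators, only Dcn, the proteoglycan decorin, differed 4-fold (4.04% of all genes were higher and 4.03% lower), and it is also one of the fibroblast markers. It was at 0.757 on the array labelled G2KO, 0.0722 on G2WT, 49.0 on DKO and 2.95 on G1G2WT, 16.6-fold higher on DKO than on its WT. Dcn was the only fibroblast marker that was higher there.

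Of 9 receptors, 2 were at least 4-fold lower in DKO MEFs and none was higher, beside 4.03% and 4.04% of all genes. Itga1 and Itga11 encode the α subunits of collagen-binding integrins. Itga1 was at 0.120, 0.0629, 0.0134 and 0.205 on the arrays labelled G2KO, G2WT, DKO and G1G2WT, 15.3-fold lower in DKO than in its WT. Itga11 was at 8.17, 7.54, 1.70 and 19.9, 11.7-fold lower. Both were lowest on DKO. Itgb1, their β subunit, was within 2-fold on all arrays, from 10.3 to 18.4. Of 6 collagenases and gelatinases with a ratio, 1 was higher and 2 lower by 4-fold, against the same shares. Ctsk, the collagen-cleaving cathepsin K, was at 8.35 on DKO and at or below 0.103 on the other arrays, 86.4-fold higher than on G1G2WT. Mmp1a and Mmp9 were dim on DKO and at least 14.9-fold and 9.97-fold lower than on its WT, while Mmp9 was dim on G2WT as well.

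Between the arrays labelled G2KO and G2WT, 3 of 11 cleavage and cross-linking genes, 1 of 7 fibril regulators, 3 of 9 receptors and 4 of 6 collagenases and gelatinases were at least 4-fold higher, and none of these lists had a gene lower by that size, beside 3.71% higher and 2.02% lower of all genes. 3 of these genes are named here after their values were seen. Lox, the lysyl oxidase that cross-links fibrils, was at 9.95 on the array labelled G2KO, 0.616 on G2WT, 18.7 on DKO and 11.8 on G1G2WT. Ddr2, a receptor kinase for fibrillar collagen, was at 3.54, 0.0110, 3.01 and 5.68, and Mmp2, gelatinase A, was at 18.7, 0.126, 14.3 and 27.8. For each of them only G2WT stood apart, as for Col11a1.

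**Figure D4:**
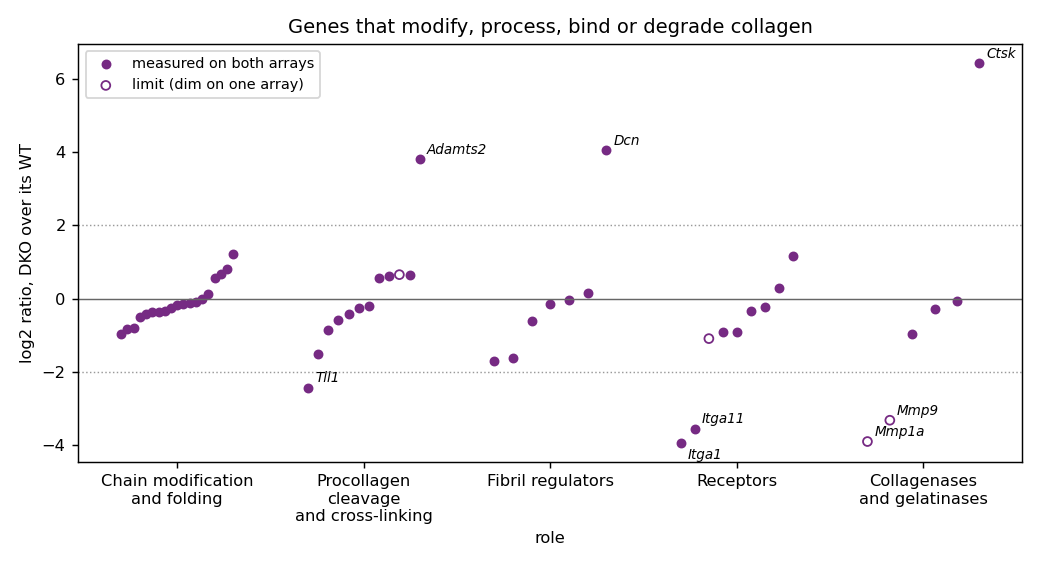
Log2 ratio of DKO over its WT for each gene with a ratio, by role, with open circles for limits, dotted lines at 4-fold and names for genes past them. No gene of chain modification and folding passes a line, and the 8 named genes are Tll1, Adamts2, Dcn, Itga1, Itga11, Mmp1a, Mmp9 and Ctsk.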

How the data were processed

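Total RNA of 4 MEF cultures was labelled with Cy3 and hybridised to 1-colour Agilent Whole Mouse Genome arrays, 1 per culture, all on 1 slide. The deposited values are the spot intensity from Agilent Feature Extraction (version 10.7.3.1 per the file headers, 10.5.1.1 in the submitters' processing notes), with background and spatial trends already removed by the authors and no scaling between arrays. The labels describe 1 colour for every array, whereas the methods describe dye swaps for part of the series. The deposited value table holds the same intensity for each spot (largest difference 0.0).

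Spots flagged as outliers were left out (107 to 140 per array), the log2 signal was averaged over the spots of a probe, and the 75th percentile of the array was subtracted (2234, 1586, 1777 and 1877 in the order G2KO, G2WT, DKO and G1G2WT). No spot was saturated. A ratio needs a probe well above background on 1 array. A dim signal was set to the higher of itself and the lowest signal well above background (ordered likewise, 14.7, 11.4, 12.98 and 19.2), which makes the ratio a limit. A limit that would reach the other side of 1 gave no ratio. A gene is read by its probe with the highest mean log2 signal. A difference was counted from 4-fold.

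Named were all fibrillar and basement membrane genes above background on some array, other collagens past 4-fold in a comparison, Ccng1 and Ccng2, and up to 4 genes a list past 4-fold in DKO. Other genes named (Vim, Nes, Sox2, Xist, Acan, Matn1, Hapln1, Runx2, Ibsp, Serpinh1, Itgb1, Lox, Ddr2, Mmp2) were chosen after their values were seen. The members, the lists of pathway genes and markers, and the naming rule were chosen with earlier results of these data known. Python 3.11.15 (numpy 2.4.6, pandas 2.3.3) was used, with limma 3.58.1 in R 4.3.3 for the normexp alternative, and the ratio calculation was tested on simulated data.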

Additional observations from a re-analysis of the deposited data

How the results depend on the processing

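No alternative to the background correction, the scaling or the filter, nor the median over a gene's probes, turned the direction of a collagen gene past 4-fold. Of 782 gene values under these settings and the authors' value table, 26 moved by over 1.5-fold. All of those moved with normexp, without filter and floor, or as the median over probes. Many of the 782 could not move. The value table holds the same signals, and the filter for both arrays only drops genes. Median scaling and no scaling shift all ratios of a comparison alike. Single probes were not exchanged in these settings, and the helix probe of Col15a1 alone had the opposite sign for DKO over its WT (log2 ratio of -0.93). In DKO, Col4a4 and Col15a1 lost the 4-fold difference with normexp (6 genes left) and with the median over probes, which added Col4a6 (7 genes). The authors' value table gave the same ratios, since it holds the same signals. The choice of WT array mattered more. Against the other comparison's WT array, the genes past 4-fold went from 8 to 13 for DKO and from 8 to 4 for the array labelled G2KO, and against the mean of both WT arrays to 5 and 3. The medians of fibrillar, basement membrane and other collagens went from -0.41, -0.48 and -0.84 to 0.52, 0.88 and 1.07 for DKO against the other WT array, and to 0.26, 0.34 and 0.16 against the mean. For the array labelled G2KO they went from 0.54, 0.34 and 1.30 to -0.31, -0.72 and -0.52 against the other WT array, and that of other collagens to 0.34 against the mean. Against the other WT array, the log2 ratio turned to 3.14 for Col10a1 and 4.33 for Col8a2 in DKO (0.20 for Col8a2 against the mean), and on the array labelled G2KO to -2.91 for Col10a1, -0.0834 for Col11a1, -0.30 for Col3a1, -1.81 for Col6a2 and -2.55 for Col8a2. These shifts follow from the difference between the WT arrays.

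Thresholds of 2-fold and 10-fold gave 15 and 5 genes for DKO, 21 and 5 for the array labelled G2KO, and 22 and 5 between the WT arrays, where 4-fold gave 13. For the array labelled G2KO, 13 genes passed without scaling and 5 among genes above background on both arrays. Its basement membrane median was 0.95 with that filter, with type IV genes alone, or over all probes of a gene. Between the WT arrays this median was 0.62 with normexp, against 1.27. The cause was not tested. No paired analysis was possible because each group has 1 array. Weak probes near background limit the values of types IX, XVII, XIX, XXIII and XXV.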
